A study of Mus musculus with 282 samples.

Results

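The 7 genes described here, Tgfbi, F13a1, Lgals3, Ly86, Ly6c2, Lrp1 and Ahnak, were picked as genes of a monocyte program in granulocyte-monocyte progenitors (GMPs) and followed across stimuli and NfkB response classes. They were chosen by name from 55450 genes, with the difference between oscillatory and transient TNF cells in these same counts known, so that difference, and the comparison of either class with blank cells, is given as a description without a test. GMPs produce granulocytes and also monocytes, the blood phagocytes that enter tissues and can become macrophages. TNF is a cytokine that sends the transcription factor NfkB into the nucleus, where it activates, among other genes, its own inhibitors. That feedback can return NfkB to the cytoplasm and lets it enter again, so that nuclear NfkB may pulse once (transient), repeatedly (oscillatory) or stay high (sustained).

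All cells came from bone marrow of male and female mice, 12 to 19 weeks old, homozygous for GFP-p65, a fluorescent fusion of an NfkB subunit, and heterozygous for the nuclear marker H2BmCherry. The cells were kept for 8 h under a confocal microscope, picked singly and sequenced by Smart-Seq2, and both stimuli share this handling and genotype. The authors' cell tables classed 238 of the 282 samples in 2 experiments, called here the 1-plate (67 cells) and the 2-plate experiment (171 cells). Among cells given TNF, 20 and 36 were oscillatory, 25 and 51 transient, 3 and 18 non-responsive, 0 and 5 sustained and 0 and 16 unclear in the 1-plate and the 2-plate experiment. Among cells with no cytokine entered, called blank here, 0 and 5 were oscillatory and 13 and 34 non-responsive in the same order of experiments. Few cells fell in the remaining classes. Reads per cell ran between 182301 and 3380416, with a median of 1339522, and cells had 3672 to 10922 detected genes. The median depth was 1537060 reads in oscillatory, 1299500 in transient and 1420690 in non-responsive blank cells. Levels are CPM, the reads of a gene scaled to a common total of the cell or of the summed cells, and depend on transcript length, so they are compared between cells and not between genes. The experiment is the replicate (n = 2), and no label tells whether they came from separate animals or cultures, so p-values measure a spread that may be technical. The labelled cell type could not be set against marker genes, because the Ensembl identifiers of the other genes could not be paired with symbols here.

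The promoters that hold a match to a motif of PU.1 or of an interferon regulatory factor (IRF) are shown because these factors are known for their role in monocyte development. RefSeq (GRCm38.p6) promoter windows, 250 bases before to 50 bases after the transcription start, were found for all 7 genes, 9 windows in all because F13a1 and Ly6c2 have 2 starts each. Capitals mark matches on either strand to GAGGAAGT (PU.1), to GAAA followed after any 2 bases by GAAA (IRF) or to GGG followed after any 5 bases by CC (NfkB), and each line reads 5′ to 3′ along the gene's strand.

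Tgfbi, chr13:56609336-56609635, plus strand: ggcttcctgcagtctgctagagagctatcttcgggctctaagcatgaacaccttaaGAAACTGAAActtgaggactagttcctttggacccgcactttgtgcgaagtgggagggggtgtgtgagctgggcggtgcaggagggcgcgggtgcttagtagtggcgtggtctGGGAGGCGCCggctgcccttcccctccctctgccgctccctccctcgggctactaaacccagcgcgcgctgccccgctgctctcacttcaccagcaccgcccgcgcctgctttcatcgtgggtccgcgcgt
F13a1, chr13:37049164-37049463, minus strand: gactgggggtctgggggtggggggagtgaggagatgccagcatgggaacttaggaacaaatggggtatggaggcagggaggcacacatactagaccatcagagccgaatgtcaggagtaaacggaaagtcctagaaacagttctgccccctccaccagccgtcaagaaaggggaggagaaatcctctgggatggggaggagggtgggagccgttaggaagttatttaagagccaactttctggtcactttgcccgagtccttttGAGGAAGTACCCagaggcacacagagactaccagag
Ly6c2, chr15:75111922-75112221, minus strand: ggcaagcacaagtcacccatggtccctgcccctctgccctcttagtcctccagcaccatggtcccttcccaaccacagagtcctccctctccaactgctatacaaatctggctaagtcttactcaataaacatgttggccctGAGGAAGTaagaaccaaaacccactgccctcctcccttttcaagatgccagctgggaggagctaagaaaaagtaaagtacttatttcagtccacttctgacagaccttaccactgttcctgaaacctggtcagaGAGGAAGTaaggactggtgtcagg

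The PU.1 motif was in 3.2% of all 32851 promoter windows, and stood 15 bases into the transcribed part of F13a1, where it overlaps an NfkB match, and 108 bases before and 27 bases after the Ly6c2 start shown, and the same matches lie in the overlapping window of its other start. The IRF motif was in 3.44% of windows and began 194 bases before the Tgfbi start. The NfkB motif as written was in 50.8% of windows, and among the members in those of Tgfbi, Lgals3, Ahnak and 1 of the starts each of F13a1 and Ly6c2. TGANTCA (AP-1, in 7.81% of windows) and TTGCNNAA (C/EBP, in 10.8%) had no match in the 9 windows. In the GRCm38.p6 gene table F13a1 and Ly86 are neighbours on chromosome 13 with 0 protein-coding genes between them, and Tgfbi lies on the same chromosome.

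Genes of proteins that act outside the cell come first. Tgfbi (ENSMUSG00000035493) encodes a secreted matrix protein, induced by TGF-beta, that binds integrins and collagen. Its level over cells had a lowest value of 0, a median of 56.4 and a highest value of 2265 CPM in oscillatory TNF cells, against 0, 0 and 368 CPM in transient TNF cells. The classes overlapped, since 6 of 20 and 6 of 36 oscillatory cells lay above the highest transient cell of their experiment, and 4 and 3 lay at or below the transient median. Summed over cells, Tgfbi stood at 298 and 310 CPM in oscillatory cells, 28.8 and 37.4 CPM in transient cells and 61.2 and 110 CPM in non-responsive blank cells of the 1-plate and 2-plate experiment. Oscillatory cells were thus 10.3-fold and 8.30-fold above transient cells, the widest gap of the 7 genes in each experiment.

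F13a1 (ENSMUSG00000039109) encodes the A subunit of coagulation factor XIII, a transglutaminase that monocytes and macrophages make and that cross-links fibrin. Its lowest, median and highest cell had 0, 25.5 and 451 CPM in the oscillatory class, against 0, 0 and 112 CPM in the transient class. Summed values were 121 and 38.9 CPM in oscillatory cells, 14.1 and 6.39 CPM in transient cells and 71.3 and 33.3 CPM in non-responsive blank cells of the 1-plate and 2-plate experiment. The transient class was low and the oscillatory class was closer to blank cells. In the 1-plate experiment 12 of 20 oscillatory cells exceeded every transient cell, but in the 2-plate experiment 2 of 36 did. Lgals3 (ENSMUSG00000050335), which encodes the galactoside-binding lectin galectin-3 abundant in macrophages, was detected in 98.2% of oscillatory and 98.7% of transient cells. Its cells ran from 0 through a median of 737 to 4777 CPM in the oscillatory class, and from 0 through 128 to 3392 CPM in the transient class. Lgals3 therefore differed in amount where it was present, with 3.01-fold and 2.97-fold higher summed levels in oscillatory than in transient cells of the 1-plate and 2-plate experiment.

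Of the surface markers, Ly86 (ENSMUSG00000021423) encodes MD-1, a secreted partner of a Toll-like receptor homologue on myeloid and B cells. It had 0, 99.4 and 426 CPM as the lowest, median and highest value in oscillatory cells, against 0, 0.433 and 186 CPM in transient cells. At least 1 Ly86 read was found in 87.5% of oscillatory cells (95% Clopper-Pearson interval 75.9 to 94.8%) and 51.3% of transient cells (39.6 to 62.96%). These intervals cover only the sampling of cells pooled over the experiments. They leave out the spread between experiments and are no test of this contrast, which chose the genes. Summed Ly86 was 109 and 102 CPM in oscillatory cells, 39.5 and 22.3 CPM in transient cells and 52.4 and 73.9 CPM in non-responsive blank cells of the 1-plate and 2-plate experiment. Ly6c2 (ENSMUSG00000022584) encodes Ly6C, the surface antigen by which classical mouse monocytes are sorted, and was the least class-dependent of the 7 genes. Its cells spanned 0 to 5203 CPM around a median of 950 in the oscillatory class and 0 to 3678 CPM around a median of 559 in the transient class. The summed oscillatory level was 1.32-fold and 1.44-fold the transient one in the 1-plate and 2-plate experiment. The plates of the 2-plate experiment went opposite ways, with 1574 CPM in oscillatory against 837 CPM in transient cells on Plate1, and 748 against 951 CPM on Plate2. Reads of Ly6c2 may be shared with its near-identical neighbour Ly6c1, which was not analysed here.

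Lrp1 (ENSMUSG00000040249) encodes a large endocytic receptor that clears proteases, lipoproteins and dying cells, and Ahnak (ENSMUSG00000069833) a very large scaffold protein at the cell membrane and cytoskeleton. Lrp1 had 0, 15.1 and 893 CPM as its lowest, median and highest value in oscillatory cells, against 0, 0.206 and 259 CPM in transient cells. Its summed level was 47.1 and 90.1 CPM in oscillatory cells, 11.4 and 18.7 CPM in transient cells and 11.3 and 17.6 CPM in non-responsive blank cells of the 1-plate and 2-plate experiment. In these sums over all phases the transient class stood beside blank cells and the oscillatory class above both, but 1 cell held 33.9% of all oscillatory Lrp1 reads. Within phases the pooled transient and blank levels differed, at 23.6 against 43.5 CPM in G1, 5.82 against 25.1 CPM in S and 20.2 against 4.80 CPM in G2M cells. The directions in G1 and G2M were the same in both experiments, but that in S was not. S cells had 17.7 CPM in transient against 2.20 CPM in blank cells of the 1-plate experiment, and 2.38 against 41.5 CPM in the 2-plate experiment. Ahnak ran from 0 through a median of 169 to 771 CPM in oscillatory cells and from 0 through 10.6 to 471 CPM in transient cells. Its reads were the most evenly spread, with 5.70% of the oscillatory total in the highest cell. Summed Ahnak was 200.4 and 187 CPM in oscillatory cells, 57.04 and 50.2 CPM in transient cells and 116 and 136 CPM in non-responsive blank cells.

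**Figure D1:**
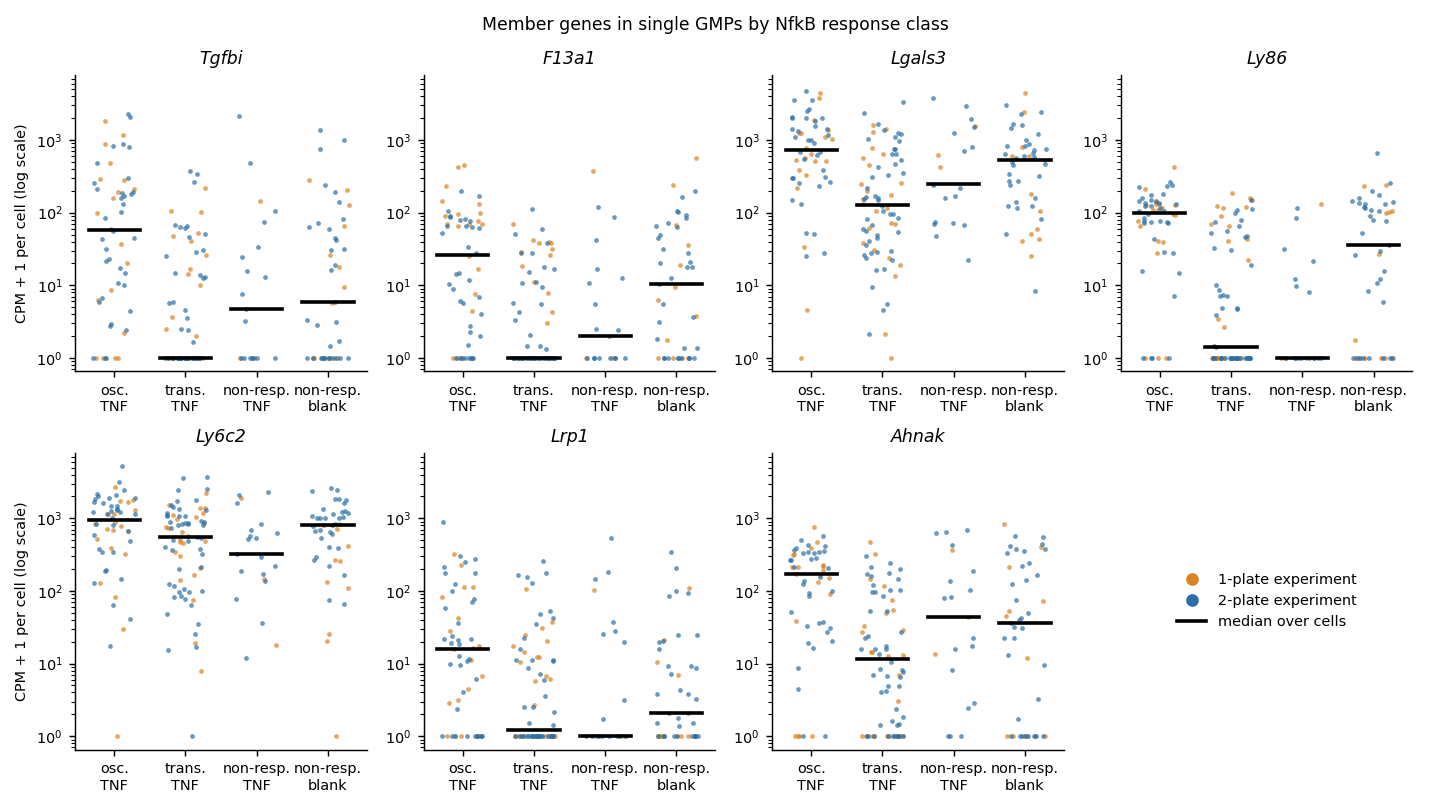
Level of each gene in single cells by response class, as CPM + 1 on a log scale, with 1 point per cell, colours for the experiment and a bar at the median over cells. Cells at 1 have no read of the gene, and the Tgfbi bar stands at 56.4 CPM (before adding 1) in oscillatory cells and at 0 in transient cells, while the Ly6c2 bars of these classes are 950 and 559 CPM.

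In an edgeR fit over class sums, the genes were higher in oscillatory than in transient TNF cells by log2 fold changes (± SE) of 3.28 ± 0.21 for Tgfbi, 2.92 ± 0.24 for F13a1, 1.64 ± 0.13 for Lgals3 and 1.86 ± 0.31 for Ly86. The values were 0.52 ± 0.20 for Ly6c2, 2.23 ± 0.21 for Lrp1 and 1.92 ± 0.15 for Ahnak. Their median was 1.92, beside −0.04 over all 16586 genes fitted. All but Ly86 and Ly6c2, 5 of the 7, passed an adjusted p of 0.05, where 0.199% of all genes did, but nothing is read from that count because the contrast chose the genes. With S-phase cells left out, all 7 remained higher in oscillatory cells, by 0.41 ± 0.14 for Ly6c2 to 3.15 ± 0.20 for Tgfbi. Among cells of G2M phase alone the differences ran from 0.40 ± 0.18 for Ly6c2 to 2.35 ± 0.46 for Tgfbi.

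Set against non-responsive blank cells, the oscillatory and the transient class moved apart in different ways for different genes, and these 2 comparisons share the blank cells. Tgfbi was 1.95 ± 0.20 log2 units higher in oscillatory and 1.33 ± 0.20 lower in transient cells than in blank cells. It so lay on both sides of them in the main fit. Over the 17 settings tried its transient value stayed below 0 but ran between −1.78 and −0.18. Among G2M cells Tgfbi summed to 42.4 CPM in transient against 21.7 CPM in blank cells of the 1-plate experiment. For the 2-plate experiment these sums were 48.5 against 94.1 CPM. F13a1 was 0.56 ± 0.23 higher in oscillatory and 2.35 ± 0.24 lower in transient cells, with most of its class difference on the transient side. Ahnak and Ly86 had values of 0.68 ± 0.15 and 0.79 ± 0.30 in oscillatory cells, and −1.23 ± 0.15 and −1.06 ± 0.31 in transient cells. Lgals3 was split evenly in the main fit, at 0.82 ± 0.12 in oscillatory and −0.82 ± 0.12 in transient cells. Its transient value ran between −1.07 and −0.27 over the settings tried. Lrp1 was 2.28 ± 0.21 above blank cells in the oscillatory class and at 0.05 ± 0.21 in the transient class. Over the settings tried, the transient value of Lrp1 ran between −0.24 and 2.03 and was below 0 in 4 of 17, with 2.03 among G2M cells, where the oscillatory value was 4.16. Ly6c2 stood at 0.80 ± 0.21 in oscillatory and 0.28 ± 0.21 in transient cells. Of the 7 genes, 3 passed an adjusted p of 0.05 for oscillatory against blank cells, where 2.35% of all genes did, and 1 for transient against blank cells, where 0.133% did, and nothing is read from these counts.

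**Figure D2:**
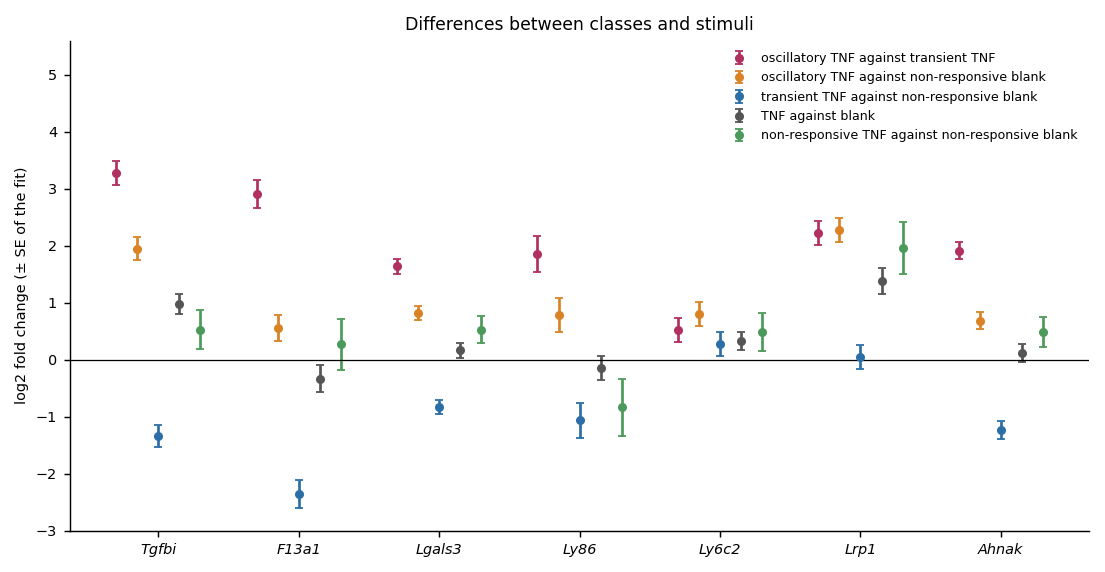
Log2 fold change of each gene with its standard error from the edgeR fits (vertical axis), for 5 comparisons shown as colours in the order of the legend. The comparison of oscillatory with transient TNF cells, which chose the genes, runs from 0.52 for Ly6c2 to 3.28 for Tgfbi, and transient cells lie below non-responsive blank cells for 5 of the 7 genes.

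Comparing TNF with blank cells irrespective of class asks whether the genes changed with the stimulus, and none of the 7 passed the test. The share of all 15479 genes tested that passed was 0.446%. Lrp1 came closest, at 27.99 and 52.5 CPM in TNF cells against 9.86 and 22.2 CPM in blank cells of the 1-plate and 2-plate experiment, so that TNF was higher in both. Its log2 fold change was 1.39 ± 0.23 (adjusted p = 0.11, edgeR quasi-likelihood test). Tgfbi had 144 and 176 CPM in TNF cells against 60.6 and 110 CPM in blank cells, a log2 fold change of 0.98 ± 0.18 (adjusted p = 0.129, edgeR). The call of these 2 genes depended on the processing. Both passed with a stricter or no filter on low counts, without S-phase cells and in DESeq2. Their adjusted p values in DESeq2 were 1.5e-04 and 8.5e-04. More of all genes passed there too, with 250 higher and 48 lower of 8619 under the stricter filter and 307 and 60 of 26130 under none. Without S-phase cells 218 and 41 of 14998 genes passed, and in DESeq2 506 and 167 of 15479. The other 5 lay between −0.33 ± 0.23 for F13a1 and 0.33 ± 0.16 for Ly6c2, with adjusted p values in edgeR of at least 0.55. At an unadjusted p under 0.05, 2 of the 7 genes and 1689 of all genes passed. The TNF cells pool oscillatory with transient cells, whose levels differed as described above.

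Non-responsive cells, which the choice of genes did not use, allowed a comparison of TNF with blank among cells that the authors classed alike, and again none of the 7 genes passed the edgeR test, where 0.64% of 12660 genes did. The TNF arm of the 1-plate experiment held 3 cells. Lrp1 summed to 43.6 and 67.7 CPM in non-responsive TNF cells against 11.3 and 17.6 CPM in non-responsive blank cells of the 1-plate and 2-plate experiment. Its log2 fold change was 1.96 ± 0.46 (adjusted p = 0.13, edgeR), but 1 of the 21 TNF cells held 55.8% of the reads, and the mean over cells without the highest cell of each sum gave −0.78. DESeq2 called Lrp1 (adjusted p = 0.0052), where 260 genes passed as higher and 88 as lower of 12660. At an unadjusted p under 0.05 in edgeR, 1 of the 7 genes and 1142 of all genes passed. Ly86 had the only negative estimate, −0.83 ± 0.50 (adjusted p = 0.70, edgeR), with a read in 38.1% of TNF and 70.2% of blank cells of this class. These shares are at full depth, and 6 of the 21 TNF but 4 of the 47 blank cells had under 8000 detected genes. In the TNF arm 1 cell at 2132 CPM held 69.9% of the Tgfbi reads, and the median cell had 3.69 CPM, against a median of 4.79 CPM in non-responsive blank cells. That cell was high in several of the genes at once, with 2909 CPM of Lgals3, 540 CPM of Lrp1 and 691 CPM of Ahnak, each but Lgals3 the highest value of the class.

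Sustained TNF cells and oscillatory blank cells, 5 each and all from the 2-plate experiment, have no replicate experiment and no test. Tgfbi had 0, 1.56, 4.22, 25.4 and 51.2 CPM in the sustained cells, and Ly6c2 had 48.2, 202, 1335, 2007 and 2024 CPM. The sustained sums were 11.1 CPM for Tgfbi and 1451 CPM for Ly6c2, against 310 and 1287 CPM in oscillatory cells of that experiment. The Tgfbi sum was thus low and the Ly6c2 sum was not. In oscillatory blank cells, Tgfbi was 0, 0, 7.52, 85.9 and 339 CPM and Ly6c2 24.6, 41.5, 381, 692 and 1709 CPM. One of these cells, in G2M phase, held the highest value of Tgfbi, F13a1, Lgals3, Ly86, Ly6c2 and Lrp1. The sums of the 5 cells lay 4.11-fold above non-responsive blank cells for Lrp1 and 1.46-fold, 1.38-fold and 1.18-fold above for Lgals3, Ahnak and Tgfbi. They were 0.787, 0.725 and 0.714 of the non-responsive blank level for F13a1, Ly6c2 and Ly86. Means over cells, which give each cell equal weight, were also taken without the highest cell of each class. The ratios were then 1.13 for Lrp1, 0.730 for Lgals3, 0.677 for Ahnak and 0.286 for Tgfbi. Both the weighting and the highest cell enter this change, and their parts were not separated here. The 16 unclear TNF cells summed to 305 CPM of Tgfbi and 238 CPM of Ahnak, near or above the oscillatory level, but to 11.5 CPM of F13a1.

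Cell cycle phase was called by the authors for each cell beside phase scores, and the choice of genes did not use these calls. The phase sums do pool the oscillatory and transient cells whose contrast chose the genes. S phase held 7.14% of the oscillatory and 25% of the transient TNF cells. The test of S against G1 is therefore not independent of that choice, and the share due to it was not tested. All 7 genes had lower estimates in S-phase than in G1-phase cells. Of these, 5 passed in edgeR, where 0.826% of 15262 genes passed in either direction. This test was added after its values had been seen. Tgfbi summed to 281 and 207 CPM in G1, 8.11 and 23.1 CPM in S and 108 and 166 CPM in G2M cells of the 1-plate and 2-plate experiment. The S level was thus the lowest in both experiments, with a log2 fold change against G1 of −4.11 ± 0.49 (adjusted p = 0.029, edgeR). Single cells weighed heavily in such sums, since 1 cell held 61.3% of the Tgfbi reads of 1-plate G1 cells. Another held 74.3% of those of 2-plate S cells. In 1-plate S cells the highest cell held 89.6% of the Ahnak and 81.6% of the Lrp1 reads. Ahnak fell by 2.01 ± 0.20 (adjusted p = 0.022), Lrp1 by 2.27 ± 0.27 (adjusted p = 0.029), and Ly86 by 1.42 ± 0.21 (adjusted p = 0.048), all log2 in edgeR. The log2 fold change of Lgals3 was −1.996 ± 0.27 (adjusted p = 0.039, edgeR). F13a1 had 162 and 28.2 CPM in G1 and 5.95 and 5.87 CPM in S cells, a value of −3.52 ± 0.62 (adjusted p = 0.069, edgeR). Ly6c2 gave −0.30 ± 0.15 (adjusted p = 0.43, edgeR) and 0.31 with spike-in scaling, with 459 and 861 CPM in G1 and 397 and 685 CPM in S cells. Of the 7 genes, 1 was called without Plate1 of the 2-plate experiment, 3 without its Plate2 and 0 without the experiment term. Calls over all genes moved too. They were 49 higher and 34 lower of 14798 without Plate1, and 70 and 73 of 14168 without Plate2. Without the term 0 of all 15262 genes passed, so that setting says nothing particular to the 7.

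None of the 7 genes passed between G2M and G1 cells in edgeR, where 0.714% of all genes did. Ly6c2 was 1.73-fold and 1.32-fold higher in G2M than in G1 cells of the 1-plate and 2-plate experiment (log2 0.59 ± 0.15, adjusted p = 0.28, edgeR), and Lgals3 had 0.394 and 0.846 of its G1 level (−0.82 ± 0.27, adjusted p = 0.39). DESeq2 called both, in these directions, where 372 genes passed as higher and 264 as lower of 15262. With spike-in scaling, however, Lgals3 stood at 0.0043 and 5 of the 7 genes were above 0. The remaining genes lay between −0.99 ± 0.55 for F13a1 and 0.03 ± 0.20 for Ly86. At an unadjusted p under 0.05, 2 members and 1565 of all genes passed.

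The phases were unevenly spread over the classes, as a description. Of the oscillatory TNF cells 7.14% were in S phase, against 19 of 76 (25%) of the transient TNF cells and 17.02% of the non-responsive blank cells. Within the oscillatory class, Tgfbi summed to 560 CPM in 16 G1 cells, 1.46 CPM in 4 S cells and 226 CPM in 36 G2M cells. In the transient class it summed to 9.99 CPM in 18 G1, 30.2 CPM in 19 S and 47.3 CPM in 39 G2M cells, but the experiments differed. The 1-plate transient cells had 22.5, 6.37 and 42.4 CPM in G1, S and G2M, with S lowest, and the 2-plate ones 7.34, 37.03 and 48.5 CPM, where 1 S cell stood at 261 CPM. Lgals3 had 1891, 543 and 1049 CPM in oscillatory and 312, 397 and 477 CPM in transient G1, S and G2M cells. The pooled transient sum was lowest in S phase for F13a1, Ly86, Ly6c2 and Lrp1, at 5.20, 18.5, 499 and 5.82 CPM, against 8.27, 20.7, 668 and 23.6 CPM in G1. The experiments differed here too. For 1-plate transient cells Lrp1 had 17.7 CPM in S against 12.4 CPM in G1, and Ly6c2 521 against 487 CPM. For 2-plate ones Ly86 had 19.9 CPM in S against 15.4 CPM in G1, and F13a1 6.30 CPM in S against 5.82 CPM in G2M. S was the lowest for each of these genes in the other experiment. In sums pooled over the experiments, the oscillatory class lay above the transient class in G1 and in G2M for all 7 genes. In S phase, where there were 4 oscillatory cells, Tgfbi, Ahnak and Ly6c2 were lower in them. Whether the phase difference itself differed between classes was not tested.

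**Figure D3:**
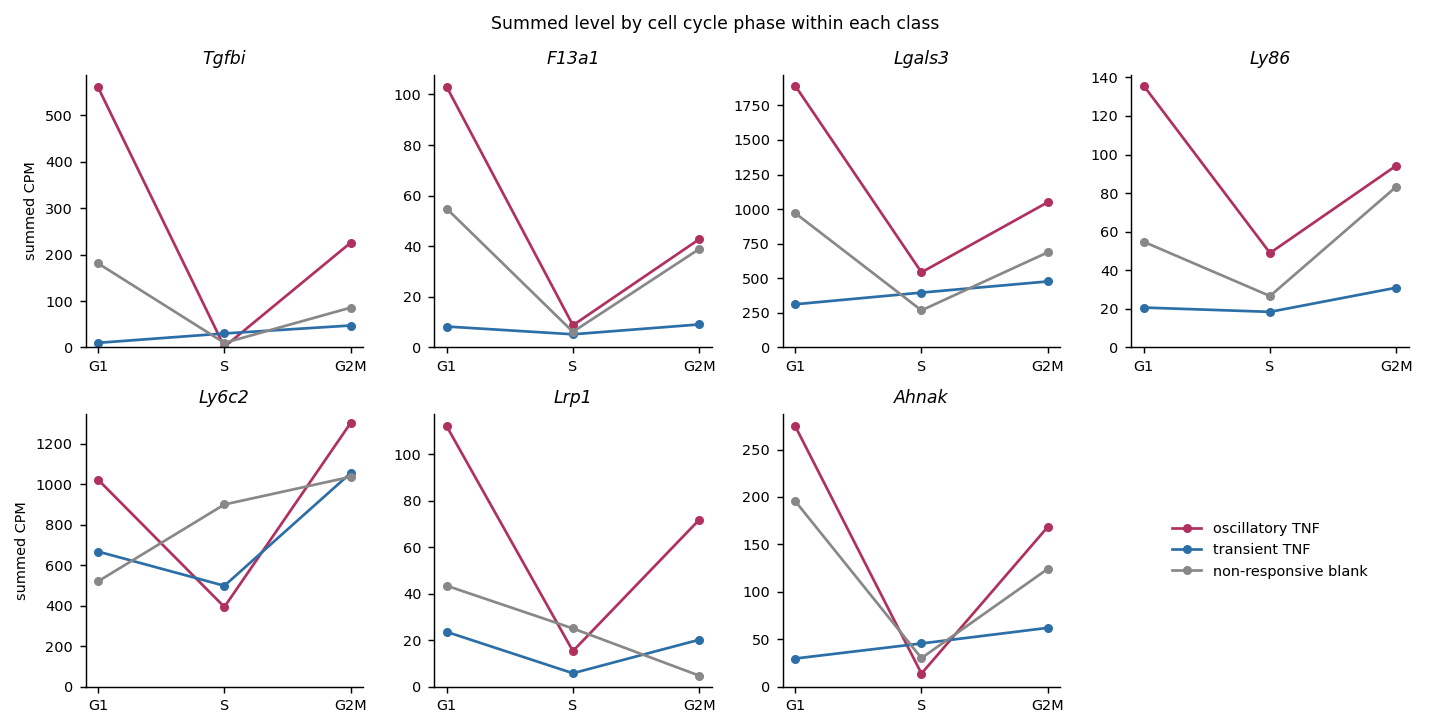
Summed CPM of each gene (vertical axis, from 0) in cells of G1, S and G2M phase, for the oscillatory and transient classes under TNF and the non-responsive class of blank cells, with both experiments pooled and no error drawn. The oscillatory line for Tgfbi drops to 1.46 CPM in the 4 S cells, and the transient line runs between 9.99 and 47.3 CPM, with 1 cell at 261 CPM in its S value.

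The number of the 7 genes with a read in the same cell is given as a description. A share expected from how often each gene was found by itself was not computed. At least 1 read of all 7 was present in 31 of 56 oscillatory TNF cells (55.4%), 13 of 76 transient TNF cells (17.1%), 4 of 21 non-responsive TNF cells (19.0%) and 21 of 47 non-responsive blank cells (44.7%). No cell of these classes lacked all 7, but Lgals3 alone had a read in nearly every cell. With each cell thinned to 400000 reads, which left 217 cells and dropped 21, the shares were 42.6%, 14.5%, 23.5% and 27.3% in the same order of classes. At full depth, the share of transient cells with a read was below that of oscillatory cells by 21.7 percentage points on average over the genes. Tgfbi had a read in 87.5% of oscillatory and 47.4% of transient cells, and F13a1 in 80.4% and 43.4%. Oscillatory cells were also deeper, with a median of 1537060 against 1299500 reads in transient cells.

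**Figure D4:**
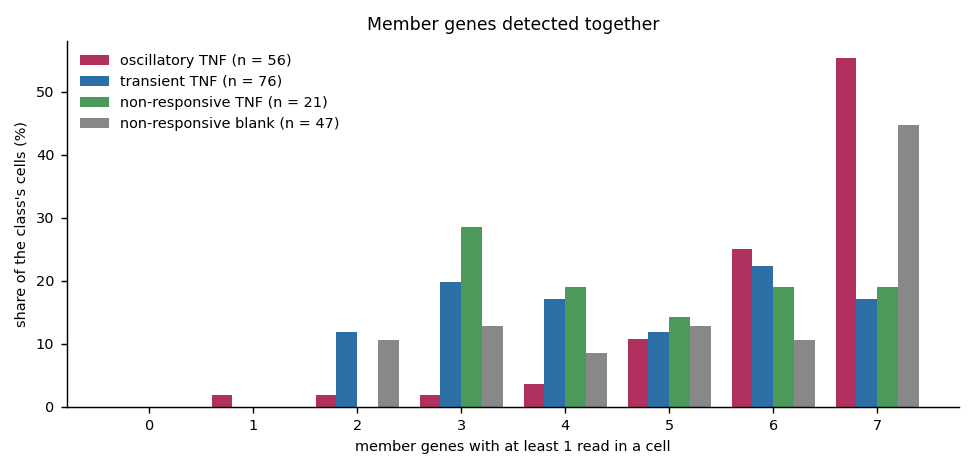
Share of the cells of each class (vertical axis, percent) by the number of the 7 genes with at least 1 read in the cell (horizontal axis). All 7 were found in 55.4% of oscillatory TNF cells and 17.1% of transient TNF cells.

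Across cells, and within each class, levels of the genes were positively related for nearly every pair, as a description over cells that share libraries and plates. The median Spearman rho of the 21 pairs, after centring each experiment, was 0.36 in oscillatory TNF cells (n = 56), 0.36 in transient TNF cells (n = 76) and 0.51 in non-responsive blank cells (n = 47). Lrp1 and Ahnak were among the closest pairs, with rho of 0.70, 0.47 and 0.76 in the same order of classes. In oscillatory cells Tgfbi and Lgals3 had the highest value, 0.71. The neighbours F13a1 and Ly86 had 0.68 over all 238 cells, the highest of the 21 pairs there, and 0.41 within oscillatory cells. Ly6c2 stood apart, with a rho of 0.36 to the mean of the other 6 genes over all cells, against 0.52 for Lrp1 to 0.77 for Lgals3. Its rho with the number of detected genes was 0.27 over all cells, and those of the other 6 ran between −0.12 and 0.20.

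**Figure D5:**
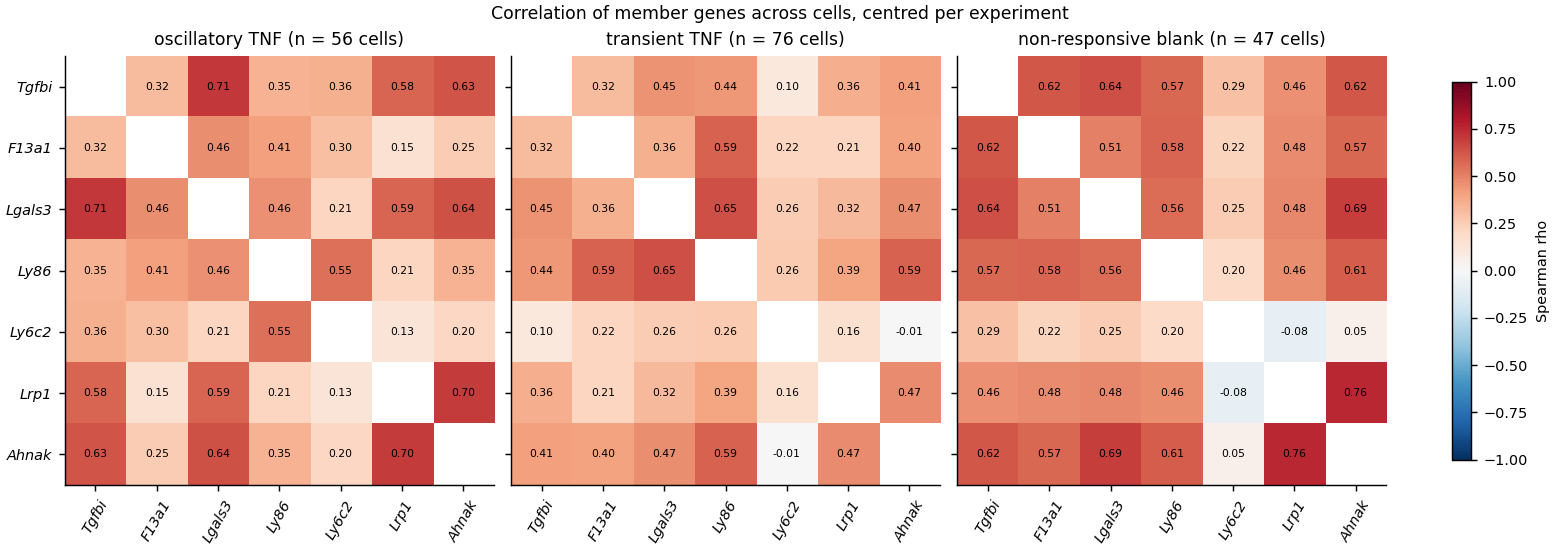
Spearman rho of each pair of genes across the cells of a class, from log2(CPM + 10) centred per experiment, with the colour scale from −1 to 1. Most pairs are positive, up to 0.76 for Lrp1 and Ahnak in non-responsive blank cells, and the only values below 0 are pairs of Ly6c2.

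Of 10926 genes with a read in at least 25% of cells, the 2 most like the mean of the 7 across all 238 cells were ENSMUSG00000004207 (rho 0.91) and ENSMUSG00000038642 (rho 0.85). Levels were centred per experiment and not per class. The ranking therefore includes the difference between oscillatory and transient cells that chose the 7 genes. ENSMUSG00000004207 summed to 1578 and 1465 CPM in oscillatory, 325 and 434 CPM in transient and 809 and 705 CPM in non-responsive blank cells of the 1-plate and 2-plate experiment. The 2 least like it were ENSMUSG00000055639 (rho −0.66) and ENSMUSG00000019982 (rho −0.64), which was at 104 and 41.3 CPM in oscillatory, 175 and 92.5 CPM in transient and 129 and 80.3 CPM in non-responsive blank cells. The files do not pair these identifiers with names.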

How the data were processed

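The authors deposited whole-read counts per Ensembl gene for single GMPs, with cell tables of stimulus, response class and phase, which also hold phase scores. The authors deposited these scores as shares that sum to 1 in each cell, and how they were made is not stated. SAMtools, Subread 1.5.0 and featureCounts were used, per the submitters' processing notes. Not given in the sources used here were aligner, genome build and strand setting. Columns were tied to samples by well and plate in the labels, and another 357 columns, tied to none, were left out. Library sizes exclude 92 spike-in features (ERCC). Comparisons exclude the 44 samples that the cell tables lack.

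Counts were summed per experiment and stimulus, phase, or response class with at least 5 cells (3 for the comparison of non-responsive cells). edgeR 4.0.16 (R 4.3.3; default low-count filter, TMM, experiment as a term, quasi-likelihood test, two-sided) was fitted on all genes, with Benjamini-Hochberg adjustment. SE is the log2 fold change over the square root of F. These fits had 1 or 2 residual degrees of freedom. DESeq2 1.42.0 was an alternative. The fits were also run on simulated sums with known changes. That simulation drew no single cells, so it did not cover sums in which a single cell holds much of the reads. Nothing is read from it here. Reads are not molecules (no molecular identifiers). The Clopper-Pearson intervals cover the sampling of cells only and not the spread between experiments. All 7 genes are named, with the 2 most and 2 least alike genes by rho. The genes, motifs and lists were chosen with earlier results of these data known. Marker lists set by symbol were not analysed here, because 0 identifiers could be paired with symbols. S against G1 had been planned as values only, and its test was added.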

Additional observations from a re-analysis of the deposited data

Results flagged for a closer look

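Among the 14 sets of 5 cells examined (7 genes in oscillatory blank and in sustained TNF cells), 6 had a highest cell far from the other 4. The criterion is set to mark about 1 in 20 sets of evenly behaved values. That rate was not measured on values like these, which hold many zeros and come from the same 10 cells, so nothing is read from the number marked. In oscillatory blank cells these were F13a1 at 75.9 CPM and Tgfbi at 339 CPM, both in the same G2M cell. In sustained TNF cells they were Ahnak at 641 CPM and Lrp1 at 81.3 CPM, both in 1 cell of G2M phase, and F13a1 at 87.1 CPM and Lgals3 at 991 CPM, both in 1 cell of G1 phase.

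The 44 samples outside the authors' cell tables, which have no class here, had 1805 to 1130586 reads. More than 3 reads, the limit that a count of 0 allows, were found in 6 of them for Tgfbi, 5 for F13a1, 21 for Lgals3, 8 for Ly86, 24 for Ly6c2, 4 for Lrp1 and 11 for Ahnak.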

How the results depend on the processing

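All 7 genes were higher in oscillatory than in transient TNF cells under each of the 17 settings fitted or computed, with Ly6c2 between 0.14 and 0.70 and Tgfbi between 2.35 and 3.86 on the log2 scale. This contrast chose the genes and the settings draw on the same cells, so nothing is read from the shared direction. On Plate2 of the 2-plate experiment by itself Ly6c2 was lower, at 748 CPM in oscillatory against 951 CPM in transient cells. The median over the genes moved from 1.92 to 1.64 among G2M cells and 2.19 in the 2-plate experiment alone, and lay between 1.68 and 2.10 without either plate of the 2-plate experiment. For oscillatory TNF against blank cells it was 0.80, 1.28 with spike-in scaling and 0.74 to 0.87 without a plate. For transient TNF against blank cells it was −1.06, −0.27 among G2M cells, −1.43 in the 2-plate experiment alone and −1.48 to −0.78 without a plate, and Ly6c2 reversed to −0.16 in the 2-plate experiment alone. For oscillatory blank against non-responsive blank cells the median of 0.24 reversed to −0.49 with equal weight for each cell and to −1.75 without the highest cell.

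For TNF against blank, 0 of the 7 genes were called, and 0 to 1 without a plate. There were 2 calls without a low-count filter, with a minimum of 10 CPM in 50% of the sums, without S-phase cells and by DESeq2. Those settings also passed more of all genes, as given above, than the 64 higher and 5 lower of the main fit. The 1 call without Plate2 of the 2-plate experiment came with 158 higher and 19 lower genes of 14323. Among non-responsive cells 0 were called, but 1 without a filter and by DESeq2, and 0 without either plate. Over all genes, 61 passed as higher and 20 as lower in the main fit. They were 219 and 126 without a filter and 260 and 88 by DESeq2. For G2M against G1, 0 were called, but 2 by DESeq2, and 0 without either plate. Over all genes, 102 passed as higher and 7 as lower in the main fit, and 372 and 264 by DESeq2. For S against G1, 5 were called, but 0 without the experiment term, 2 with spike-in scaling, 3 among TNF cells and 1 to 3 without a plate. Over all genes, 71 passed as higher and 55 as lower in the main fit, and 0 and 0 without the experiment term. They were 50 and 20 with spike-in scaling, 62 and 82 among TNF cells, 49 and 34 without Plate1 and 70 and 73 without Plate2. The cause was not tested. Spike-in scaling put the median of all genes at 0.42 for TNF against blank, 0.76 for G2M and 0.64 for S against G1 and 0.56 and 0.41 for oscillatory and transient TNF against blank cells, where it had been 0.03, 0.03, 0.02, 0.02 and 0.03, and under it F13a1 and Ly86 were above 0 for TNF against blank. Spike-in scaling, the G2M cells, the cells outside S phase and the limit of 8000 detected genes were chosen after seeing the data. The median rho in oscillatory cells was 0.36, and 0.49 as Pearson r.

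No paired analysis was possible because the replicate numbers name wells of plates and the experiments, the only replicates, are already a term. With 2 experiments, 1 or 2 residual degrees of freedom and classes of 3 to 25 cells in the 1-plate experiment, differences of single genes within small classes rest on few cells.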
